A study of Mus musculus with 16 samples.

Results

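Smad4 restoration in liver metastases was followed by changes in open chromatin at 752 sites, of which 631 became more accessible and 121 less. These data are the 4 liver samples among the 16 samples of the series, taken by their labels: 2 from metastases with Smad4 off (Liv_OFF) and 2 from metastases with Smad4 restored (Liv_ON), each from its own mouse. Accessibility was measured by ATAC-seq, in which a transposase cuts open DNA, in sorted mKate2-positive tumor cells (60000 per sample). The cells were KC-shSmad4 cells, mouse pancreatic cancer cells with Ptf1a-Cre, which acts in the pancreatic epithelium, a Rosa26 cassette with rtTA3 and mKate2, and a doxycycline-inducible, GFP-linked shRNA against Smad4 at Col1a1. Liv_OFF and Liv_ON cells shared all of these alleles. The cells (400000) were injected into the spleen of female Foxn1 nu mice aged 6 to 8 weeks, hosts without mature T cells, and formed metastases under doxycycline, which keeps the shRNA on. In Liv_ON mice the drug was withdrawn 5 weeks after injection, and cells were taken 14 days later. Drug withdrawal, loss of the hairpin and return of Smad4 came together in Liv_ON, so their effects cannot be told apart. Which cell line seeded each mouse is not stated in the labels.

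Smad4 is the shared partner of the receptor-activated Smads. Ligands of the TGF-β superfamily bind paired receptor kinases that phosphorylate these Smads, and the complex with Smad4 enters the nucleus and binds DNA beside other transcription factors. In pancreatic cancer cells the pathway is known for cell-cycle arrest and for a program of epithelial-mesenchymal transition and matrix genes. It is also known to induce Gli2, a transcription factor of the Hedgehog pathway.

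The table held 136630 nuclear peaks, and the value of a peak is its normalized count, the reads divided by a size factor for the sample. Between 26848855 and 35079229 reads per liver sample fell in peaks, with a median of 36 to 50 reads per peak. Peaks were called in limma where the log2 fold change reached 0.58 in size and the adjusted p did not exceed 0.1, and all 6 groups of the series shared the estimate of spread. All fold changes are Liv_ON minus Liv_OFF on the log2(normalized count + 1) scale. By these limits 0.55% of the peaks were called, 0.462% higher and 0.0886% lower. Replicates of the 752 called peaks did not overlap, but over all peaks Liv_ON lay above Liv_OFF at 21.6% and below it at 22.9%. In bulk chromatin, a site that is open in fewer cells and a site that is less open in each cell cannot be told apart. The size of the set rested on single samples: without Liv_ON_1 only 3 peaks were called, without Liv_OFF_1 34, without Liv_OFF_2 1015 and without Liv_ON_2 2573. It also rested on the other organs. When the liver samples were fitted alone, 81 peaks were called and 14.8% of them were higher, against 83.9% in the fit of all groups. The higher share was 66.7% with a pseudocount of 10, 94.1% without Liv_OFF_1 and 95.2% without Liv_ON_2, and none of the 3 calls without Liv_ON_1 was higher. The median absolute log2 difference was 0.35 between the 2 Liv_OFF samples, 0.37 between the 2 Liv_ON samples and 0.35 between the group means. Within groups the called peaks leaned to one sample. Liv_ON_1 was above Liv_ON_2 at 80.2% of the higher peaks, beside 48.2% of all peaks, and Liv_OFF_1 was above Liv_OFF_2 at 95% of the lower peaks, beside 47.1%. The mitochondrial share of reads was 3.06% and 3.56% in Liv_OFF and 2.58% and 2.55% in Liv_ON, and its part in the calls was not tested. With 2 samples against 2, an exact permutation test of a single peak cannot go below p = 0.333.

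The sequences of the strongest sites are shown so that the motifs counted over all calls can be seen in place. They are the central 300 bases (mm10, plus strand) of the 4 peaks of smallest p in each direction among the named peaks of at most 1500 bases. Capitals mark matches, on either strand, to the AP-1 motif TGANTCA, the RUNX motif TGTGGTT, the KLF motif CCNCNCCC and the SMAD box CAGACA. The peaks that were more accessible in Liv_ON come first. The peak at chromosome 17 lay in an intron of Runx2.
no gene within 100 kb, chr4:64952748-64953047: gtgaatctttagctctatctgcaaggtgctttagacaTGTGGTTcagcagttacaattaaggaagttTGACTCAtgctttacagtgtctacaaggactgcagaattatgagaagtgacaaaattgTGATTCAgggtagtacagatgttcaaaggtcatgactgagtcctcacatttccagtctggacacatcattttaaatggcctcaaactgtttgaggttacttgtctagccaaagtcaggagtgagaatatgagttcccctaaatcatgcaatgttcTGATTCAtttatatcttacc
Pak1ip1, chr13:40982868-40983167: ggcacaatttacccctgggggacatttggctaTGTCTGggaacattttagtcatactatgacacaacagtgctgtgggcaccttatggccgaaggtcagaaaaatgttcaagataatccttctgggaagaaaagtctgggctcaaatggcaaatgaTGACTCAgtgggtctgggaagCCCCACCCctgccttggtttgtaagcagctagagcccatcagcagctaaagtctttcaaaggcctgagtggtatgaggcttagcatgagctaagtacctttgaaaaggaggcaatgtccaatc
Col6a3, chr1:90754124-90754423: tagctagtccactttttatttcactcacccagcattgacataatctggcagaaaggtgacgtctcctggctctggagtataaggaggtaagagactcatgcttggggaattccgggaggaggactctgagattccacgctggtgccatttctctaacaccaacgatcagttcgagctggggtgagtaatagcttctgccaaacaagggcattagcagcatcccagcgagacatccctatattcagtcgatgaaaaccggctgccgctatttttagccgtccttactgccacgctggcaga
no gene within 100 kb, chr17:44500451-44500750: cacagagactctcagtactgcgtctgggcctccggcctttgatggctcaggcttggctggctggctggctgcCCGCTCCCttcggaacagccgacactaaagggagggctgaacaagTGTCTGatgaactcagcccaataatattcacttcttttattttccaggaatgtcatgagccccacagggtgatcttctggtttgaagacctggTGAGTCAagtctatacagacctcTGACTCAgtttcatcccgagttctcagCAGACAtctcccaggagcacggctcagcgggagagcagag

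The 4 peaks that were less accessible in Liv_ON follow. The windows of Slc29a3 and Gse1 lay in introns of these genes, and the other 2 were intergenic.
Slc29a3, chr10:60747947-60748246: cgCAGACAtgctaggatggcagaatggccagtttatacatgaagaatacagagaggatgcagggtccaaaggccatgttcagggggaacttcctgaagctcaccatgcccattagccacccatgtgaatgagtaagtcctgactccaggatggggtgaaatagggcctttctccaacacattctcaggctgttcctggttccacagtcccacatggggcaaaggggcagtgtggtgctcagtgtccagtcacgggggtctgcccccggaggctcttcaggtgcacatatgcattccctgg
Txndc2, chr17:65629529-65629828: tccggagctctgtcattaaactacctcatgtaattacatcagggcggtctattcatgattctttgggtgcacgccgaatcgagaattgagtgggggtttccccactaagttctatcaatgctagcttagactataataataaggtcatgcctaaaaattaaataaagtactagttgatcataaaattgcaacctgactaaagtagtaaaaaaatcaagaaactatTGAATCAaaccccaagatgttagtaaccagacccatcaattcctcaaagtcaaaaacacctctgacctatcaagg
no gene within 100 kb, chr3:5448026-5448325: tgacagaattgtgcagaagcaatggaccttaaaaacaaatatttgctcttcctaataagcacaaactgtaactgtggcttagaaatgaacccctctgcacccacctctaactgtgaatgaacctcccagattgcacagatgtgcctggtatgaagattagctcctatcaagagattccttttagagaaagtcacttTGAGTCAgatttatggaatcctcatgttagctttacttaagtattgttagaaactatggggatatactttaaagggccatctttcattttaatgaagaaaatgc
Gse1, chr8:120529194-120529493: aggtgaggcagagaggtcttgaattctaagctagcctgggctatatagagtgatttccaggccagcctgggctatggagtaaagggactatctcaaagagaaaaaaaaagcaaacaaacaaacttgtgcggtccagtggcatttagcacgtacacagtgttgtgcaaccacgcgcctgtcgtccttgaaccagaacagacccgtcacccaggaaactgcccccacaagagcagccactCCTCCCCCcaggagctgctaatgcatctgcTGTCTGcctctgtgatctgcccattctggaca

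Among the 4 sites gained, the intergenic site on chromosome 4 held 3 AP-1 matches and 1 RUNX match, the Runx2 intron held 2 AP-1, 2 SMAD box and 1 KLF match, the Pak1ip1 site held 1 AP-1, 1 SMAD box and 1 KLF match, and the Col6a3 site held none of the 4 motifs. Among the 4 sites lost, Slc29a3 held 1 SMAD box, Gse1 held 1 SMAD box and 1 KLF match, and Txndc2 and the site on chromosome 3 held 1 AP-1 match each. AP-1 was thus in 3 of the 4 gained and 2 of the 4 lost, and the SMAD box in 2 of each, so these 8 windows do not carry the difference in shares given next. Over all calls, the AP-1 motif (TGANTCA) was in the central 300 bases of 57.4% of the 631 higher peaks (362) and of 17.4% of the 121 lower peaks (21), beside 34.1% of all nuclear peaks. AP-1 factors are dimers of Fos and Jun proteins. The RUNX motif (TGTGGTT) was in 15.5%, 12.4% and 10.9%, and the SMAD box (CAGACA) in 32.8%, 24% and 26.1%. The KLF motif (CCNCNCCC) stood the other way, in 22.3% of the higher, 35.5% of the lower and 28.4% of all peaks. The Smad4 palindrome GTCTAGAC was in 4 higher peaks (0.634%) and no lower peak, beside 0.327% of all peaks. The other motifs searched, on both strands and with overlaps allowed between motifs, were GGCGCC for SMAD, GGAATG for TEAD, TGTTTAC for FOX, TTAATNATT for HNF1, CAAAGTCCA for HNF4, GGAAGT for ETS, TATTGAT for ONECUT, AGATAA for GATA, TTGCNNAA for CEBP, GAAANNGAA for IRF, CAGGTA for ZEB and SNAIL and ACAAAG for SOX. Each of these was in 1.04% (HNF4) to 25.1% (SOX) of all peaks, and the plot of motif shares gives all 17. Higher peaks had a median GC content of 44% and lower peaks of 47.3%, beside 45.8% for all peaks. Higher peaks were also wider than all peaks and less often in promoters, as given below. The part of base composition, width and location in these shares was not tested.

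**Figure D1:**
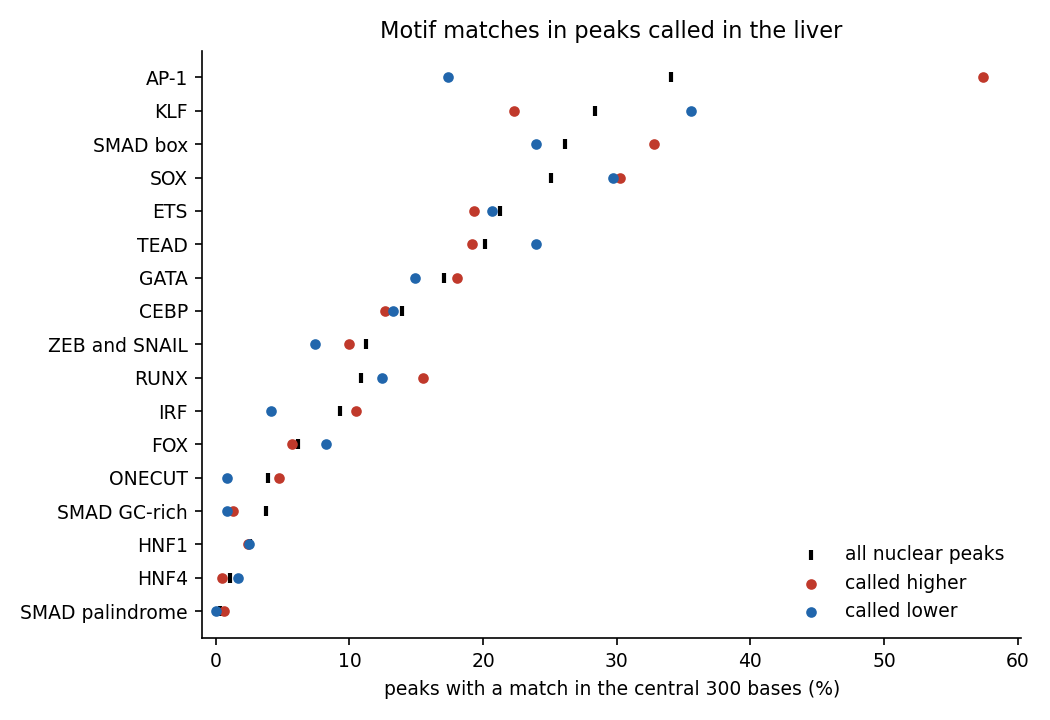
Share of peaks (%, x axis) with at least 1 match to each of 17 motifs (y axis) in the central 300 bases, for the 631 peaks called higher (red), the 121 called lower (blue) and all 136630 nuclear peaks (black ticks). AP-1 is the motif for which red and blue lie farthest apart (57.4% and 17.4%).

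Sites gained lay far from genes' start sites. Of the 631 higher peaks, 53.1% were intergenic, 35.5% lay in introns, 9.35% in exons and 2.06% (13 peaks) in promoters, within 1000 bp of a start site. Of the 121 lower peaks, 35.5% were intergenic, 50.4% intronic, 10.7% exonic and 3.31% (4 peaks) in promoters. Over all peaks these shares were 42.6%, 37.3%, 9.28% and 10.8%. The median distance to the nearest start site was 50338 bp for higher and 33475 bp for lower peaks, beside 26834 bp over all peaks. Higher peaks were also wide, with a median of 1070 bp beside 588 bp. The log2 fold change had a median of 1.33 among higher peaks (0.58 to 3.80) and −1.996 among lower peaks (−4.18 to −0.65). Most called peaks were of intermediate level. Only 8 of the 9237 peaks with a mean normalized count of at least 1024 were called, and the median log2 fold change there was −0.17 beside 0.30 for peaks under 16. Quantile normalization brought these medians to −0.02 and 0.03 and left 320 calls, of which 83.4% were higher.

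**Figure D2:**
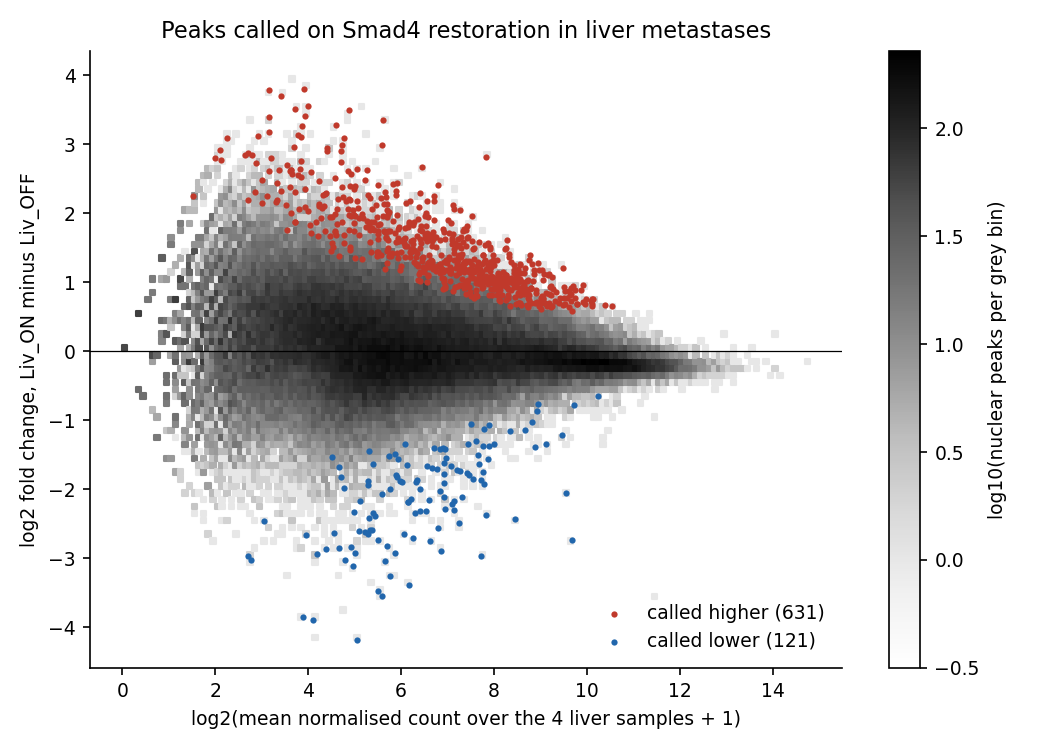
Log2 fold change of each peak (y axis, Liv_ON minus Liv_OFF) against log2 of its mean normalized count over the 4 liver samples plus 1 (x axis). Grey squares count all nuclear peaks on a log10 scale, red points are the 631 peaks called higher and blue points the 121 called lower.

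Of sites lost, the peak of smallest p lay beside Col1a1, the gene at which the model carries its transgene. This peak, chr11:94953389-94956222, was 347 bp past the 3′ end of Col1a1 and is assigned by start site to Hils1, 11371 bp away. The shRNA cassette of these cells sits at Col1a1. Its normalized count was 1576 and 1268 in Liv_OFF and 238.8 and 187.9 in Liv_ON, a log2 fold change of −2.73 ± 0.21 (SE, limma adjusted p = 5.7e-05). Liv_OFF was far above Liv_ON with no overlap, which was required of every named peak. The same peak was lower on withdrawal in the lungs (−1.30) and in the pancreas (−1.23), with limma adjusted p of 0.041 and 0.0096. It was called without any one of the 4 liver samples and in all 14 alternative fits. The hairpin is expressed from this cassette under doxycycline. Whether the cassette has a part in this peak was not tested, and hairpin, Smad4 and the drug cannot be told apart there.

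The start site of Gli2 was the promoter with the smallest p, and its locus was the only one with 3 or more losses and no gain. The peak, chr1:119051311-119054303, overlaps the start site, an exon and the UTR. It had 1265 and 1130 normalized counts in Liv_OFF and 325 and 255.9 in Liv_ON. This was a log2 fold change of −2.05 ± 0.23 (SE, limma adjusted p = 0.0079), and no alternative of 14 lost the call. Across the Gli2 locus 6 of 26 peaks were called, all lower (−2.89 to −0.86). Of these 6 calls, 5 held with edgeR and 3 when the liver groups were fitted alone, and most were lost without Liv_ON_1. Within the gene 17 of 18 peaks had a negative fold change (median −1.60), whereas the 8 upstream peaks were split 4 and 4 (median 0.01, none called). The intronic peak 48295 bp into the gene fell most, from 239.4 and 167.2 to 37.3 and 18.3 (log2 fold change −2.89), and the one 30403 bp into it from 641.8 and 533.6 to 102.5 and 112.7 (−2.43). Both were called in 12 of the 14 alternative fits. At the start site the fold change was −1.59 in the lungs and −1.07 in the pancreas (limma adjusted p = 0.033 and 0.016), and the test of a difference from the liver gave adjusted p of 0.927 and 1.00 in limma, so a difference was not shown.

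**Figure D3:**
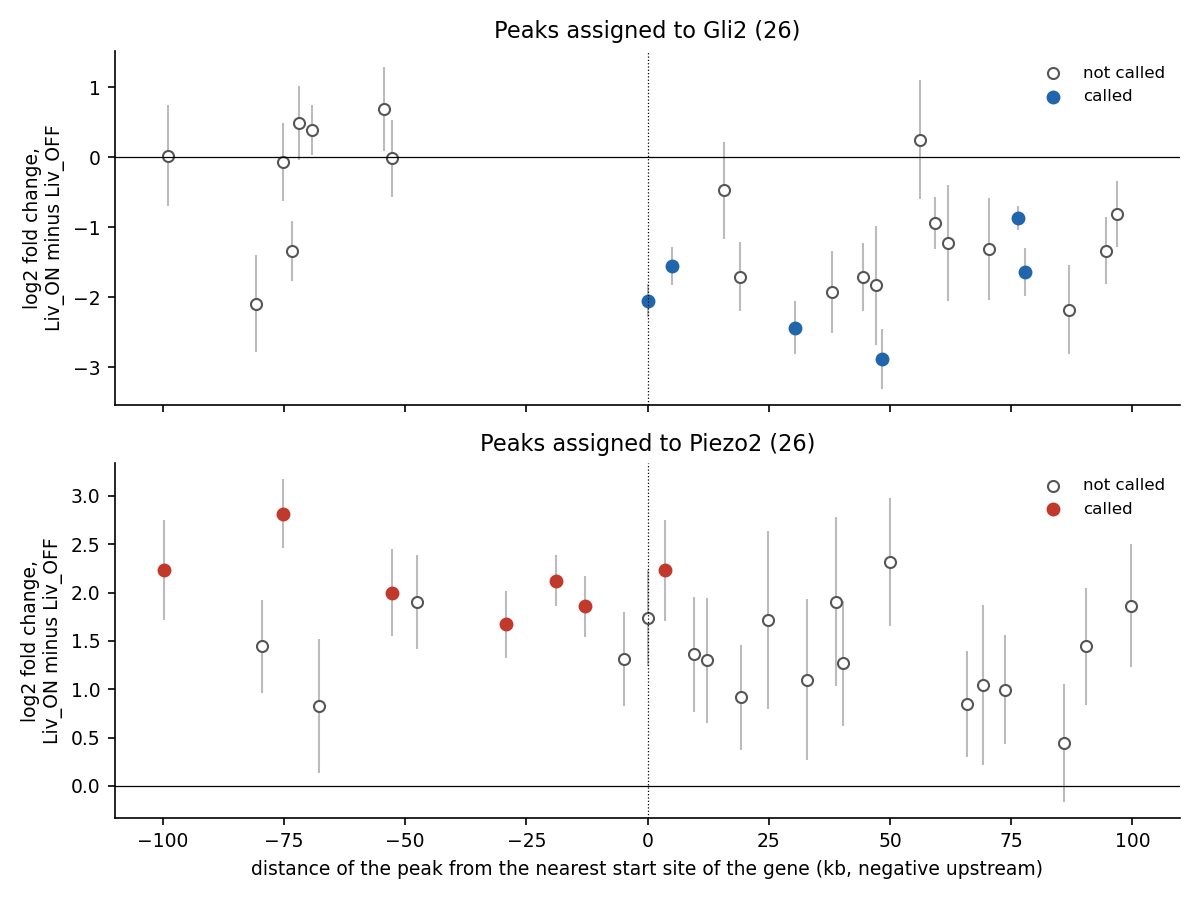
Log2 fold change with its SE (y axis) of the 26 peaks assigned to Gli2 (top) and the 26 assigned to Piezo2 (bottom) against distance from the nearest start site of the gene in kb (x axis, negative upstream). Filled points were called, 6 at Gli2 and 7 at Piezo2, and loss at Gli2 lay within the gene while gain at Piezo2 lay on both sides of the start.

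The other 10 named losses lay in introns, in intergenic DNA and, for 1, in a coding exon. The peak in an intron of Pepd, the peptidase that cleaves proline dipeptides, went from 169.1 and 137.9 in Liv_OFF to 30.3 and 29.5 in Liv_ON (log2 fold change −2.32 ± 0.32). An intron of Slc29a3, a nucleoside transporter, went from 150.6 and 111.5 to 18.6 and 19.3 (−2.71 ± 0.40). An intron of Arl15, a small GTPase, went from 470.2 and 271.7 to 61.7 and 32.5 (−2.97 ± 0.51), and an intron of Msi2, an RNA-binding protein, from 143.2 and 86.4 to 18.6 and 15.2 (−2.65 ± 0.46). The 2 groups did not overlap in these peaks, as was required of every named peak. The coding exon of Epb41l4b had the largest change, from 76.5 and 47.4 to 4.66 and 1.02, but it rests on few reads in Liv_ON. The remaining named losses were an intergenic site near Txndc2 (504.8 and 391.5 to 210.8 and 187.9), a site on chromosome 3 with no gene within 100 kb, an intron of Gse1, a site 67411 bp past the start of Ppp1r3c, which targets protein phosphatase 1 to glycogen, and an intron of Tnrc6b that is assigned to Adsl, an enzyme of purine synthesis. These 5 had log2 fold changes from −2.59 to −1.16. Limma adjusted p over the 12 named losses ran from 5.7e-05 to 0.043.

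Piezo2, which encodes a mechanically gated ion channel, had the most sites gained. Its peak 75177 bp upstream of the start site (chr18:63462360-63464134) had normalized counts of 54.3 and 54.3 in Liv_OFF and 499.7 and 301.6 in Liv_ON, a log2 fold change of 2.81 ± 0.35 (SE, limma adjusted p = 0.012). Both Liv_ON samples were several times above Liv_OFF, with Liv_ON_1 the higher. At this locus 7 of 26 peaks were called and 26 of 26 had a positive fold change (median 1.56). The start site peak itself was at 92.6 and 57.1 in Liv_OFF and 294.7 and 204.1 in Liv_ON (1.74 ± 0.50) and was not called (limma adjusted p = 0.16). The 7 calls were all lost without Liv_ON_1, and 2 held when the liver groups were fitted alone.

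The other 11 named gains lay at sites of varied genes, and 4 of them had no start site within 100 kb. The site of second smallest p, chr1:71755305-71757598, was 102105 bp upstream of Fn1, which encodes fibronectin, and rose from 229.6 and 260.5 to 567.2 and 560.6 (1.20 ± 0.15, limma adjusted p = 0.012). A site 170927 bp upstream of Pappa, a protease that cleaves IGF-binding proteins, rose from 8.64 and 6.97 to 85 and 91.4 (3.35 ± 0.43). A site 89175 bp from the start of Col6a3, a chain of collagen VI, rose from 98.7 and 89.2 to 238.8 and 214.3 (1.26 ± 0.17). In all 3, replicates lay close together and the groups far apart, but the peaks were chosen for small p and no overlap. The intron of Runx2, a transcription factor, rose from 413.4 and 451.4 to 788.5 and 738.3 (0.82 ± 0.11). A site upstream of F2r, the thrombin receptor, inside an intron of Iqgap2, rose from 211 and 252.2 to 534.6 and 470.2 (1.12 ± 0.16). Introns of Tiam2, an exchange factor for Rac, and of Dkk2, a secreted modulator of Wnt, rose with log2 fold changes of 1.04 ± 0.15 and 1.15 ± 0.17. The site upstream of Dlg1, a polarity scaffold, was the most accessible of the 12, at 525.8 and 613 in Liv_OFF and 1117 and 1083 in Liv_ON (0.95 ± 0.13). The other 3 were upstream of Pak1ip1, 1700020N01Rik and Palmd (0.92 to 1.89), the last 107319 bp away. Limma adjusted p over the 12 named gains ran from 0.012 to 0.026, and without Liv_ON_1 none kept its call.

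**Figure D4:**
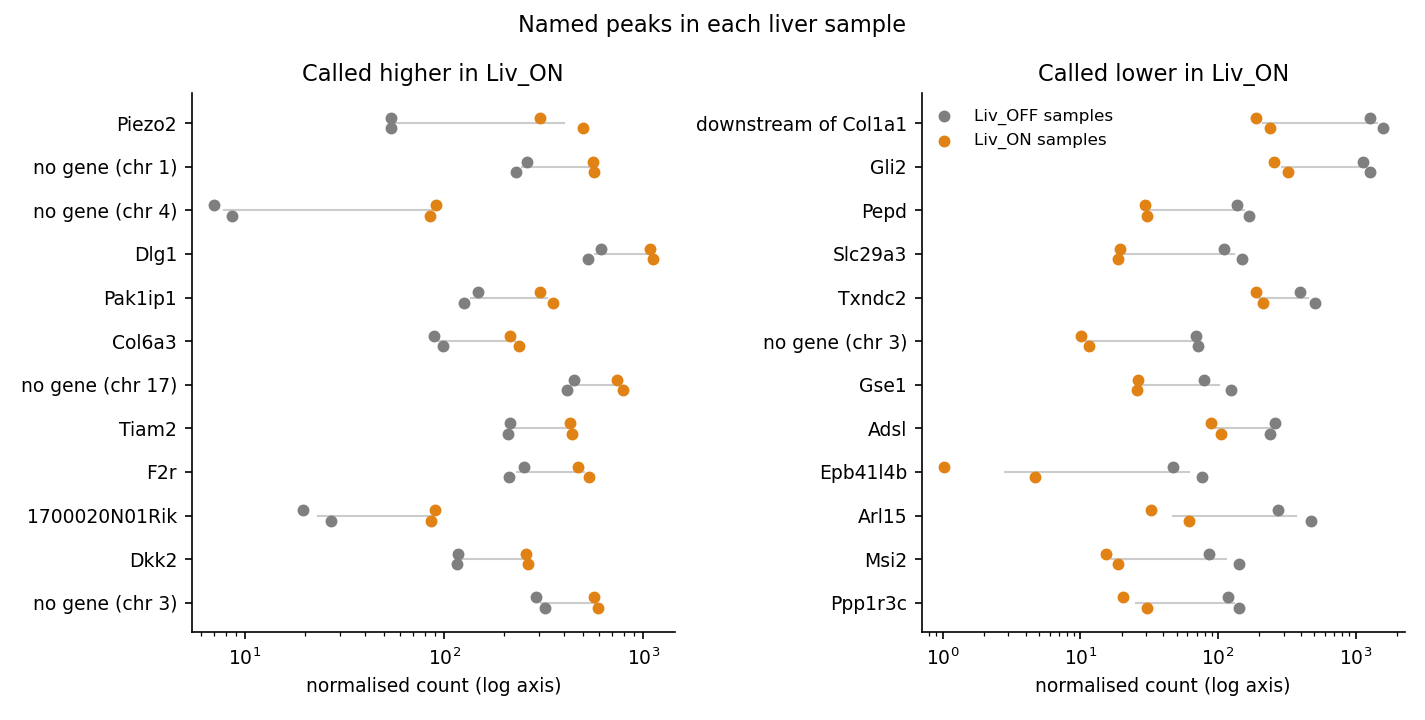
Normalized count (log axis) of the 12 named peaks called higher (left) and the 12 called lower (right) in each liver sample. Grey points are the 2 Liv_OFF samples, orange points the 2 Liv_ON samples and lines join the group means. The groups overlap in none of the 24 peaks because peaks with overlap were not named.

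Beyond Piezo2, 13 loci had 3 or more gains and no loss, of which 9 are named here. Sgk1, a kinase induced by serum and glucocorticoids, had 5 of 30 peaks called (0.66 to 1.65), all 47776 bp or more upstream, while its start site stood at 2413 and 2231 in Liv_OFF and 2226 and 2355 in Liv_ON (−0.02). Fbln2, which encodes the matrix glycoprotein fibulin-2, had 4 of 18 peaks called, and here the start site was among them, at 860.2 and 756.5 in Liv_OFF and 1565 and 1133 in Liv_ON (0.72 ± 0.16, limma adjusted p = 0.093). Itgb3, the integrin β3 chain, had 4 of 14 called (1.35 to 2.12), and all 14 had a positive fold change. Dlg1, Col6a3, Camk1g, Cd44, Adarb1 and Synpr had 3 each. Cd44, the receptor for hyaluronan, illustrates a start site that did not follow its distal sites: 41 of its 46 peaks had a positive fold change, while the start site was at 1802 and 1691 in Liv_OFF and 1697 and 1837 in Liv_ON (0.02). Of these 10 loci together, no call was made without Liv_ON_1.

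The pathway's own genes were then taken by role. Of the 10 TGF-β superfamily ligand genes, none of 105 peaks was called (median log2 fold change 0.28, beside 0.02 over all peaks, but 0.14 without Liv_ON_1). Of the 11 receptor genes, 2 of 125 peaks were called (1.6%, beside 0.55% of all peaks). A peak in an intron of Acvr1, a type I receptor, was at 245.6 and 263.3 in Liv_OFF and 475.2 and 404.2 in Liv_ON (0.78 ± 0.16). A peak in an intron of Bmpr1b, a receptor for BMPs, fell from 207.3 and 135.1 to 31.4 and 18.3 (−2.75 ± 0.57). Among Smads and inhibitors, 5 of 309 peaks rose and none fell (1.62% called, median 0.17), where 0.462% of all peaks rose. Pmepa1, an inhibitor of the pathway, had a peak 80193 bp upstream at 271.5 and 298.1 in Liv_OFF and 618.5 and 669.3 in Liv_ON (1.17 ± 0.21). Ltbp1, which holds latent TGF-β in the matrix, had 3 called peaks (0.90 to 1.37). Smad5, a Smad of the BMP branch, had 1 (1.60 ± 0.34). Of 204 peaks of TGF-β response genes 2 rose, at Snai1 (0.96 ± 0.19) and Tgfbi (1.20 ± 0.27), and none fell (0.98% called, median 0.11). Limma adjusted p of these calls lay between 0.043 and 0.098.

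Genes that the study named as effectors of Smad4 were read at their start sites and across their loci. These genes were chosen by the study in this tumor model, so they are not independent evidence of a direction. None of the 8 start site peaks was called. For Cdkn1c, a cyclin-dependent kinase inhibitor, the start site was at 469 and 575.4 in Liv_OFF and 421.6 and 436.7 in Liv_ON (−0.28 ± 0.17, limma adjusted p = 0.54). For Id1, an inhibitor of DNA binding, it was at 8775 and 10070 against 7674 and 9634 (−0.13 ± 0.13), and the groups overlapped. Has2, the hyaluronan synthase, was at 1413 and 1382 against 1695 and 1978 (0.39 ± 0.16). Il11, a cytokine, was at 281.4 and 451.4 against 507.8 and 489.5 (0.48 ± 0.25). Col6a1 was at 108.6 and 105.9 against 229.4 and 124.9 (0.65 ± 0.26), and Itga5 at 1022 and 985 against 1152 and 1027 (0.12 ± 0.14). For Ccbe1 the values were 245.6 and 238.2 against 364.6 and 365.6 (0.59 ± 0.27). For Ccn4 they were 139.5 and 59.9 against 300.5 and 80.2 (0.76 ± 0.55), with overlap. Across the loci 4 of 87 peaks were called (4.6%, beside 0.55% of all peaks), with a median of 0.63 beside 0.02. All 4 were higher, as were 83.9% of the calls over all peaks. They were 2 upstream of Ccn4, a matricellular protein (2.31 and 1.62), and 2 upstream of Ccbe1, a secreted protein of lymphatic growth (2.17 and 1.95). The larger change at Ccn4 was at low counts (2.47 and 4.18 in Liv_OFF against 28 and 14.2 in Liv_ON). Limma adjusted p of the 4 calls lay between 0.067 and 0.099. All 17 peaks of Ccbe1 had a positive fold change, whereas 8 of 10 at Cdkn1c were negative (median −0.21). The 4 effector calls were lost with edgeR and without Liv_ON_1, and the median without that sample was 0.46.

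Matrix, adhesion and mesenchymal genes were taken next, beside the 0.55% of all peaks called. Of 179 peaks of EMT factors and mesenchymal genes 5 rose and none fell (2.79%). Their median was 0.39, but 0.17 without Liv_ON_1 and 0.64 without Liv_ON_2. By nearest start site these were at Fn1 (2 peaks, 1.30 and 1.68), Snai1, Zeb2 (0.91 ± 0.18) and Zeb1 (1.19 ± 0.25). The last 3 genes encode repressors of epithelial genes. The Fn1 peak of 1.30 lay 97601 bp and the Zeb1 peak 80953 bp upstream, while the other Fn1 peak and the Zeb2 peak lay in introns. The Snai1 peak, 14159 bp downstream of the start, is the one counted above among the TGF-β response genes. Of 233 collagen peaks 4 rose, 3 at Col6a3 and 1 at the start site of Col7a1, the anchoring fibril collagen, which was at 394.9 and 426.3 in Liv_OFF and 870 and 714 in Liv_ON (0.94 ± 0.20). The median over collagens was 0.41, but 0.10 without Liv_ON_1 and 0.81 without Liv_ON_2. Of 295 integrin and laminin peaks 6 rose and 1 fell (median 0.15). Beside the 4 at Itgb3, the gains were at Itgb1 (1.78 ± 0.32) and Itgb6 (0.93 ± 0.20), and the loss was at Lamb1 (−1.996 ± 0.45). Among 143 peaks of matrix proteases and their inhibitors none was called (median 0.29, but 0.11 without Liv_ON_1 and 0.56 without Liv_ON_2). Of the epithelial identity genes (173 peaks) and the mucin and gastric genes (82 peaks), none was called either, with medians of −0.05 and −0.29, and 25.6% of the mucin and gastric peaks had a positive fold change beside 51.3% of all peaks. Without Liv_ON_1 the epithelial median turned to 0.11. Limma adjusted p of the matrix, adhesion and mesenchymal calls lay between 0.019 and 0.097.

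Of the transcription factor and growth genes, 5 of 7 lists held 1 or 2 calls, 0.83% to 1.13% of their peaks beside 0.55% of all peaks. No peak was called among the 211 of the KLF factors (median 0.06) or the 199 of the endoderm factors (median −0.14, but −0.01 without Liv_ON_1). At the start site of Klf4 the values were 4452 and 5198 in Liv_OFF and 3716 and 4140 in Liv_ON (−0.29 ± 0.10, limma adjusted p = 0.25). The RUNX factors had 1 call in 117 peaks, in an intron of Runx2 at low counts (1.23 and 2.79 against 14 and 10.2), with a median of 0.30 that was 0.15 without Liv_ON_1 and 0.56 without Liv_ON_2. The named gain in another intron of Runx2 is not counted there, since it lies 234460 bp from a start site, past the 100 kb limit of the assignment. AP-1 subunits had 1 call in 108, downstream of Jun (1.40 ± 0.32, median 0.01). Cell-cycle genes had 2 in 197, near Myc (1.17 ± 0.21), the growth factor-induced transcription factor, and Gadd45a (0.91 ± 0.21), a stress-induced growth inhibitor, with a median of 0.00. YAP and TEAD genes had 2 in 177, a gain at Wwtr1, the coactivator TAZ (1.49 ± 0.26), and a loss at Tead1, its DNA-binding partner (−2.39 ± 0.47). MAPK feedback genes had 2 in 240, both upstream of Spred2, an inhibitor of MAPK signaling (1.29 and 0.91). Limma adjusted p of these 8 calls lay between 0.043 and 0.096. Over the 18 lists, no peak kept a call without Liv_ON_1.

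The called sites were then read in the lungs and pancreas, whose samples did not enter the liver fold change but did enter its spread. Their cells were injected into the tail vein (lungs) or the pancreas, in smaller numbers than for the liver. Withdrawal came later after injection in the lungs and earlier in the pancreas than in the liver. The lung labels also give a later day. Organ cannot be told apart from route, cell number and timing, whose part was not tested. Sites gained in the liver were least open in Liv_OFF of all groups. Over the 631 peaks the median normalized count was 62.9 and 76.6 in Liv_OFF and 213.1 and 161.5 in Liv_ON. It was 216.3 to 339.7 in Lung_OFF, 357.4 to 398.7 in Lung_ON, 314.3 to 326 in Panc_OFF and 413.5 to 454.5 in Panc_ON. By this median, these sites were more open in each lung and pancreas sample than in either Liv_ON sample, while the liver levels themselves chose the sites. Of the 631, 93.3% had a positive fold change in the lungs (median 0.34) and 96.7% in the pancreas (median 0.45), beside 49.6% and 53.3% of all peaks. In the pancreas 40 of them were called higher, where 0.364% of all peaks were. The 121 sites lost, also chosen by the liver levels, had medians of 156.7 and 112.9 in Liv_OFF and 36.1 and 27.4 in Liv_ON. They were lower in the ON than in the OFF samples of each other organ, at 38.2 to 43.9 against 58.9 to 97.8 in the lungs and 25.8 to 32.2 against 71.7 to 76.8 in the pancreas. A negative fold change was found at 120 of the 121 in the lungs (median −1.003) and at 117 in the pancreas (median −1.14). In the pancreas 58 of them were called lower, where 3.06% of all peaks were. In the lungs 3 were called lower, which were all the lower calls there (0.0022% of peaks). Whether the change on restoration in the liver differed from that in the lungs or pancreas was tested directly, and limma called no peak for either. At an unadjusted limma p under 0.05 there were 7171 (lungs) and 5403 (pancreas) of 136630 peaks. A share of 0.05 would pass by chance alone, so these counts do not show a difference. For the same comparisons edgeR called none for either, and DESeq2 called 48 and 25.

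**Figure D5:**
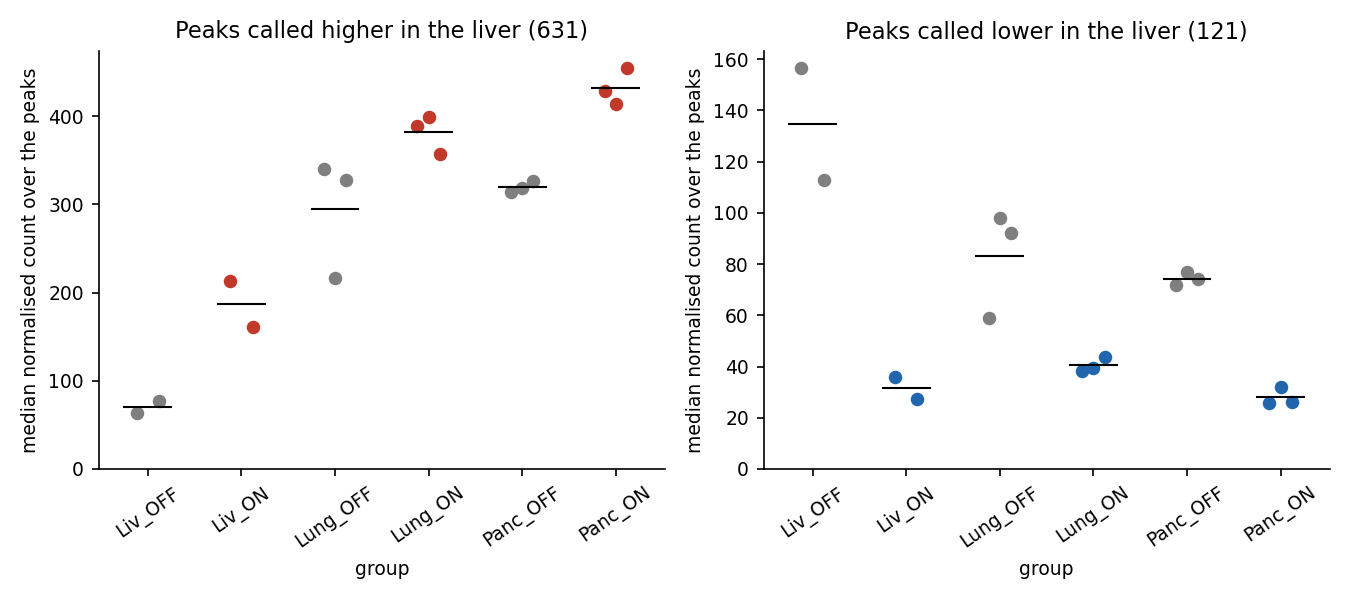
Median normalized count (y axis) over the 631 peaks called higher (left) and the 121 called lower (right) in the liver, with 1 point per sample and a line at the mean of each group (x axis). Red and blue points are samples with Smad4 restored and grey points samples with Smad4 off. Liv_OFF lies lowest on the left and highest on the right, but the liver levels themselves chose the sites.

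Markers of the cells a liver sort could hold were read at start sites. All 6 tumor epithelium markers had a start site peak, with summed normalized counts of 44530 and 45319 in Liv_OFF and 34407 and 43153 in Liv_ON. Of the 10 hepatocyte markers only Apob and Ttr had one, and their sum was 1173 and 1009 in Liv_OFF and 718.6 and 1036 in Liv_ON. Neither Alb nor Apoa1 had a start site peak in the table. For macrophage and Kupffer cell markers (2 of 7, Cd68 and Csf1r) the sum was 460.4 and 795.5 against 627.8 and 672.3. For endothelium (3 of 6) it was 72.8 and 73.8 against 76.9 and 55.9, and for stellate cells and fibroblasts (5 of 7) 1507 and 1570 against 1711 and 1452. One neutrophil marker of 4 had a peak, at 98.7 and 79.4 against 92 and 131, and none of the 5 lymphocyte markers had one. No peak of any of these genes was called. The groups overlapped for every list except tumor epithelium, which was lower in both Liv_ON samples. Its part in the calls was not tested. Against every lung and pancreas sample, the liver sums were higher for tumor epithelium (14794 to 30410 there), hepatocyte (232.9 to 608.4) and macrophage markers (215.4 to 419.6). They were lower for endothelium (96.8 to 744.7) and for stellate cells and fibroblasts (1730 to 4370). The part of other cells in differences between organs was not tested. At the Smad4 start site, where the hairpin does not act, the values were 979.9 and 1119 in Liv_OFF and 888.7 and 990.2 in Liv_ON, so that accessibility gave no check of the labels there.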

How the data were processed

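The 4 liver samples were grouped by their titles. According to the methods and processing notes, trimming by the authors used Trim Galore with cutadapt, alignment used Bowtie2 on mm10 and peak calling used MACS2. The authors then merged peaks within 500 bp over all samples and counted reads with featureCounts. The deposited values are a signal, the normalized count of reads per peak after division by a DESeq2 size factor. Whether duplicates were removed or read ends shifted is not given in the sources used here. If duplicates were kept, counting error is understated. All values came out as whole reads (within 0.1 of a read), which gives the depth. The mitochondrial row (2.55% to 3.56% of reads in liver samples) was left out. Deposited starts count from 0, so 1 was added. Replicates were not copies of one library, with a chi-square per degree of freedom of 5.32 (Liv_OFF) and 6.65 (Liv_ON). Each sample had its own mouse, but with 2 per group the p-values rest on little replication.

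Peaks were assigned to the nearest protein-coding start site within 100 kb (GENCODE vM21), with exons counted from all gene types. Sequences came from GRCm38.p6 and motifs were counted as exact matches in the central 300 bases. The test was limma 3.58.1 (trend and robust options) in R 4.3.3 on log2(normalized count + 1) with a mean for each of 6 groups and all 16 samples. Changes of low peaks are understated on this scale. Adjustment was by Benjamini-Hochberg over 136630 peaks, and errors are SE. The script was tested on simulated data. Named peaks were, for each direction, the 12 calls of smallest p with no overlap of replicates and a mean of at least 50 in the higher group (1 per gene), up to 10 loci per direction with at least 3 calls of one direction, up to 4 called genes of each of 18 gene lists, the listed Smad4 effectors, and Smad4. An allele of the model and part of the effector list are not reported here. Klf4 was added after its values were seen. The members and lists were chosen with earlier results of these data known. Alternatives were a pseudocount of 10, a mean of at least 20, TMM factors, quantile normalization, edgeR 4.0.16 and DESeq2 1.42.0 on the reads recovered, stricter thresholds (1 and 0.05), liver groups alone, the replicate number as a block, GC correction, both, and leaving out each liver sample.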

Additional observations from a re-analysis of the deposited data

How the results depend on the processing

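The count of called peaks (752) moved by more than 1.5 times under most settings. It was 433 with a pseudocount of 10, 1198 with TMM factors, 320 with quantile normalization, 318 with edgeR, 3185 with DESeq2, 81 with liver groups alone and 146 at thresholds of 1 and 0.05. Leaving out 1 sample gave 3 to 2573. The cause was not tested. Higher calls outnumbered lower ones except with liver groups alone (12 and 69) and without Liv_ON_1 (0 and 3). Of the 631 higher and 121 lower calls, 267 and 49 were also called by edgeR, 554 and 72 by DESeq2, and 8 and 39 with liver groups alone. In every fit other than those leaving out a sample, 4 higher and 10 lower peaks were called. The same 2 lower peaks, beside Col1a1 and at Gli2, were called in all 14 fits. Of the 24 named peaks, 22 lost their call without Liv_ON_1, 16 without Liv_OFF_1 and 13 with liver groups alone.

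Replicate numbers did not pair the liver samples (correlation of deviations 0.083), and with 2 pairs no order can be read. A replicate block left 361 called peaks, and the block with GC correction 213. The interactions stayed at 0 calls except with DESeq2 (48 against the lungs, 25 against the pancreas) and when a sample was left out (0 to 1 for both, the 1 arising without Liv_ON_2 for the lungs and without Liv_OFF_2 for the pancreas). At 36 to 50 reads per peak and 2 samples per group, changes at low peaks were not detectable unless large.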

Other observations

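The Cdkn2a and Cdkn2b genes, which encode cell-cycle inhibitors and lie side by side on chromosome 4, had 1 and 4 assigned peaks. The study reports homozygous deletion of this locus in most cell lines from tumors of this model. Whether the DNA was present in the liver samples was not tested, so absent DNA and closed chromatin cannot be told apart. The Cdkn2a peak had 0 reads in all 4 liver samples. The Cdkn2b peaks lay 82287 bp or more from its start site, and no start site peak of either gene was in the table. The most open of these, 90634 bp away, was at 62.9 and 64.1 in Liv_OFF and 135.1 and 101.6 in Liv_ON.

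Called peaks were spread over the genome. Higher calls ranged from 0.207% of peaks on chromosome 5 to 0.79% on chromosome 1 among the autosomes. In 269 windows of 10 Mb, the median log2 fold change ran from −0.25 to 0.27.

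Promoters other than that of Gli2 with a called loss were those of Mapk3, a MAP kinase (−0.65), Iffo2 (−2.12) and Pde4c, a phosphodiesterase (−1.30). Called gains lay at 13 promoter peaks, among them those of Cd109 (0.93), a coreceptor of TGF-β, and Lgr6 (0.89). These genes were chosen after their values were seen.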
